A study of Mus musculus with 48 samples.

Results

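The genes described here encode glycosyltransferases, the Golgi and ER enzymes that build the glycans of mucins, membrane glycoproteins and glycolipids. They were taken by their symbols from 9 families (Fut, St3gal, St6gal with St6galnac, B3galt, B4galt, B3gnt, Galnt, Gcnt and Mgat). The ratios of single genes did not decide which symbols matched, but the set was chosen with earlier results of these data known. The symbols matched 131 of the 41085 probes and 68 genes. Of these, 70 probes of 50 genes had a value on all 48 arrays, and all 50 genes were tested among 12938 genes. The 18 others had an empty cell on at least 1 array: B3galt2, B3gnt4, B3gnt5, B4galt2, B4galt5, B4galt7, Fut1, Fut8, Fut9, Fut11, Galnt14, Galnt17, Galnt18, Mgat4c, St3gal2, St6galnac1, St6galnac3 and St6galnac5.

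RNA came from jejunal epithelium of female C57BL/6 mice that were gavaged with sesame oil vehicle or with TCDD, the dioxin that activates the aryl hydrocarbon receptor (AHR). TCDD was given every 4 days for 28 days, at 8 doses: the 3 lowest were 0.01, 0.03 and 0.1 µg/kg, the middle ones 0.3 and 1 µg/kg, and the highest 3, 10 and 30 µg/kg. Each of 24 treated animals (3 per dose) was set against 1 vehicle animal on 2 arrays with the dyes exchanged, and such an animal pair is 1 replicate. All pairs with the same number, 8 each, share 1 of only 3 vehicle animals. The labels give no age, and ratios hold no levels, so the labelled epithelium could not be checked against the level of its markers. Values are log2 ratios of treated over vehicle on arrays centred on their median, given for pairs 1, 2 and 3 in that order. The deposited sign is not stated, and this direction is likely because Cyp1a1, the textbook AHR target, was above 0 on 12 of 12 arrays at 10 and 30 µg/kg. A gene is called where limma gives an adjusted p under 0.05 over all genes tested.

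Mucosal glycans are built in steps. GalNAc-transferases (Galnt) place the first sugar of mucin-type O-glycans, and Mgat enzymes set the branches of N-glycans. Gcnt, B3gnt, B3galt and B4galt enzymes branch and lengthen the chains. Fucosyltransferases (Fut) and sialyltransferases (St3gal, St6gal, St6galnac) cap them, and these caps are read by lectins, by gut bacteria and by immune receptors. St6gal1 adds the sialic acid cap of N-glycans that CD22 on B cells recognises.

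St6gal1 and Galnt3 were the only members called at any dose, both at 30 µg/kg, and the promoter windows of both are shown because AHR can act at such windows. Each window is the RefSeq sequence on GRCm38.p6 from 250 bases before to 50 bases after an annotated start site, 5′ to 3′, and capitals mark GCGTG, the 5-base core of the AHR response element, on either strand (CACGC on the other). St6gal1 has 3 such windows on the plus strand of chromosome 16, and Galnt3 has 1 on the minus strand of chromosome 2.
St6gal1 chr16:23224490-23224789: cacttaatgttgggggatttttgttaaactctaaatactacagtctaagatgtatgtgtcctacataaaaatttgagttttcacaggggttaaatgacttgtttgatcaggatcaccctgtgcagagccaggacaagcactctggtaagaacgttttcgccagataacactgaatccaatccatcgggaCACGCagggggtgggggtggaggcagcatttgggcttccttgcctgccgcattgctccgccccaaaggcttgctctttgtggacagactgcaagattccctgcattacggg
St6gal1 chr16:23225771-23226070: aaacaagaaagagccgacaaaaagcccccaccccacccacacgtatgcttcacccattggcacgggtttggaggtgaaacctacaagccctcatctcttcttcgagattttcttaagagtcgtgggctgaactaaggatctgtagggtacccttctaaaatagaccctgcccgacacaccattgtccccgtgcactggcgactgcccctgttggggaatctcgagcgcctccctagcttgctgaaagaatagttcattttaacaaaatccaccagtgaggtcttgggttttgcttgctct
St6gal1 chr16:23290220-23290519: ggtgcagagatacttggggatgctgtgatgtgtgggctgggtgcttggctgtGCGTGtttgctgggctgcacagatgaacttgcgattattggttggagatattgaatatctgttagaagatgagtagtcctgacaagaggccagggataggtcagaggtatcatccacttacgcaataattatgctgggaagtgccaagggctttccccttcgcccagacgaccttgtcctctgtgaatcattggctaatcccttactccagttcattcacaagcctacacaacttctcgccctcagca
Galnt3 chr2:66124744-66125043: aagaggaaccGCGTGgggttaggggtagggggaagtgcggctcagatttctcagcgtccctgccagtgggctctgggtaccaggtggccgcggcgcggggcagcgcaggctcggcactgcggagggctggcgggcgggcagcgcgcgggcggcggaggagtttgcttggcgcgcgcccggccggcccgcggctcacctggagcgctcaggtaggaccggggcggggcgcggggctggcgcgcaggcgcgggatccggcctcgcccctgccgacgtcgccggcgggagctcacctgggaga

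The first and the last St6gal1 window held the core once each, the middle one did not, and the Galnt3 window held it once. RefSeq windows were matched for 37 of the 50 members, 56 windows in all. The core lay in 22 of these 56 windows (39.3%), against 10639 of all 32851 mouse windows (32.4%). A match is a description of the letters, not a site of binding, and where the array probes lie relative to these start sites is not known here.

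At 30 µg/kg, 2 of 50 members were called, St6gal1 lower and Galnt3 higher, which is 4% of the members against 2.14% (277) of all genes tested, 1.09% higher and 1.05% lower. At an unadjusted p under 0.05 there were 10 of 50 members (20%) against 2098 of 12938 genes (16.2%). At each of the 7 lower doses 0 members were called by limma, with 0 to 3 members at an unadjusted p under 0.05. Among all genes the share called was 0.0232% at 0.1 µg/kg (all lower), 0.139% at 0.3 µg/kg (0.0309% higher and 0.108% lower), 0.216% at 10 µg/kg (0.201% higher and 0.0155% lower) and 0 at the 4 other doses. The median of the 50 members at 30 µg/kg was -0.02, and that of all genes was 0.00. The mean ratio was within 0.25 of 0 in 43 members, and the 95% interval lay within 0.5 of 0 in 39 members. Changes beyond that size were thus outside the interval for most of the enzymes and not for the other 11.

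**Figure D1:**
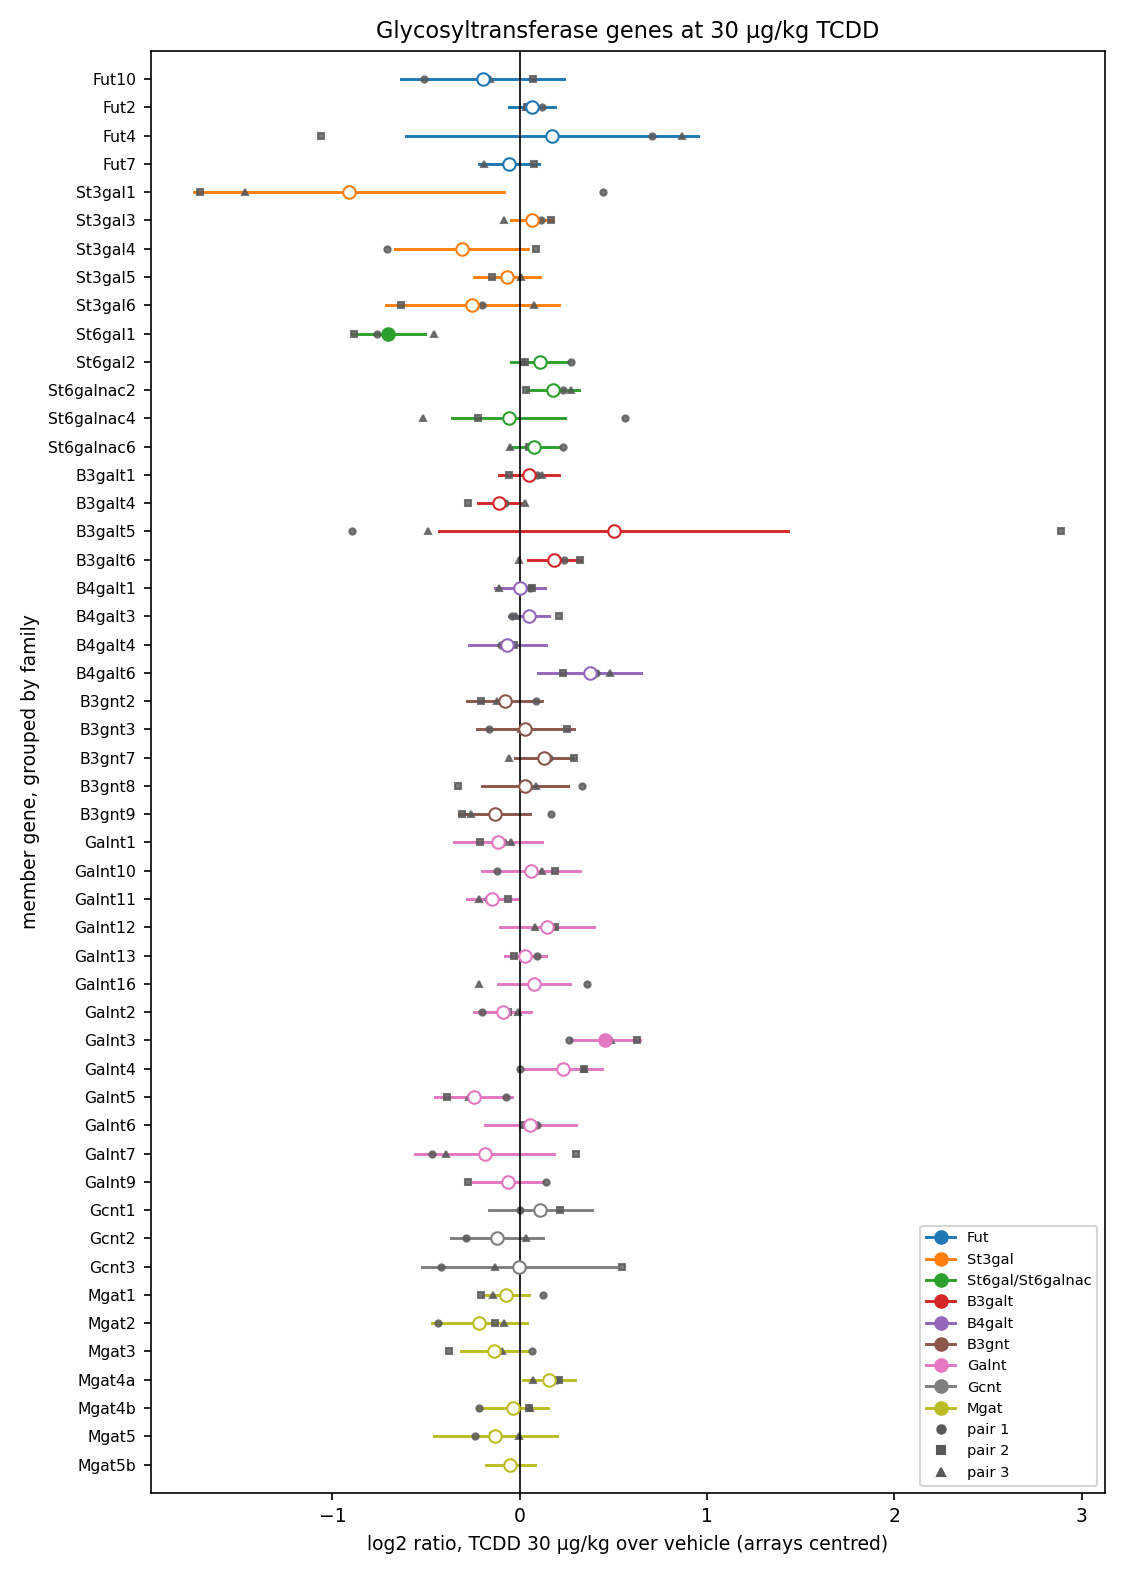
Log2 ratio over vehicle at 30 µg/kg TCDD (x axis) of the 50 member genes, by family. Large circles are means of 3 pairs (filled where called), lines are 95% intervals from limma, and small grey symbols are single pairs; St6gal1 at -0.70 and Galnt3 at 0.46 are the filled circles.

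St6gal1 fell at 30 µg/kg. The pairs had log2 ratios of -0.76, -0.88 and -0.46, a mean of -0.70 ± 0.22 (SD, n = 3; limma adjusted p = 0.000148), or 61.5% of the vehicle level. All 3 lay below the 21 pairs at lower doses, the nearest of which was 1 pair at 0.03 µg/kg with -0.43. At 10 µg/kg the values were -0.32, -0.30 and -0.29, all below 0, and the mean of -0.30 was not called (limma adjusted p = 0.417). Their closeness is not shared by the single probes, which are given below. At 3 µg/kg the values of the gene were -0.07, -0.33 and -0.24. At 1 µg/kg the mean was -0.14 and all pairs were below 0. At the 4 lowest doses the dose means ranged from -0.17 to 0.09 and the pairs lay on both sides of 0.

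The vehicle animals cancel from the slope on log10 dose and from the difference of the high doses (10 and 30 µg/kg) from the low doses (0.01 to 0.1 µg/kg). The St6gal1 slope was -0.17 per factor of 10 in dose (SE 0.034; limma adjusted p = 0.0195), the 1 member called of 50, where 0.634% of all genes were called (0.417% higher and 0.216% lower). The high doses were 0.48 lower than the low ones on the log2 scale (difference -0.48, SE 0.084; adjusted p = 0.00542), again the 1 member called, against 0.634% of all genes (0.51% higher and 0.124% lower). Within the vehicle animals numbered 1, 2 and 3 this difference was -0.58, -0.57 and -0.30, so it had 1 direction in all 3. Other members that were not called also had 1 direction in all 3, among them St3gal6 (lower) and B4galt6 (higher). The St6gal1 slope lost its call without vehicle animal 1 (limma adjusted p = 0.249) or 2 (0.0858), and the St6gal1 difference did so too (0.21 and 0.0652).

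The fall rests on 1 of the 2 St6gal1 probes, which the array's annotation assigns to the same gene. Probe A_52_P161630 had -1.49, -1.55 and -0.78 at 30 µg/kg, a mean of -1.27 ± 0.43 (SD, n = 3; limma adjusted p = 0.000504), or 41.4% of vehicle. Its 2 arrays in pair 2 lay apart, at -2.29 and -0.81. Probe A_51_P101375 had -0.04, -0.22 and -0.13, a mean of -0.13 ± 0.09 (adjusted p = 0.451), or 91.3% of vehicle. The 2 probes did not overlap at this dose. Dose means of the first probe were 0.19, -0.32 and 0.13 at the 3 lowest doses and ran -0.12, -0.32, -0.40, -0.53 and -1.27 from 0.3 to 30 µg/kg, while those of the second stayed between -0.13 and 0.18 over all 8 doses. At 10 µg/kg the 2 arrays of pair 2 were at -1.20 and -0.26 for the first probe and at -0.09 and 0.35 for the second. Those of pair 3 were at -0.27 and -0.18 for the first and at -0.56 and -0.14 for the second. Over the 24 pairs the correlation of the 2 probes was 0.08. In the 17 members with several measured probes such correlations ran from -0.20 (St6galnac2) to 0.91 (Galnt3). Those of B4galt3, Fut2, Mgat1 and Mgat3 were also below that of St6gal1, so the gene values of these members carry the same limit. Which transcripts each St6gal1 probe detects was not analysed here, so the value of St6gal1 is a mean of unlike signals.

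Galnt3, which starts O-glycans on targets that include the hormone FGF23, rose at 30 µg/kg. The pairs had 0.26, 0.62 and 0.49, a mean of 0.46 ± 0.18 (SD, n = 3; limma adjusted p = 0.00708), or 1.37-fold. At 10 µg/kg the values were -0.16, 0.23 and 0.25, and at the 6 lower doses the dose means were between -0.16 and 0.06. Both Galnt3 probes rose at 30 µg/kg, by 0.57 (adjusted p = 0.0129) and 0.35 (0.00709), and over 24 pairs they correlated at 0.91. The difference of high from low doses was 0.31 (adjusted p = 0.101), which passed with the vehicle animal as a replicate block (0.0383). Within vehicle animals 1, 2 and 3 it was 0.00, 0.46 and 0.48, so the pairs of vehicle animal 1 showed none of it. The rise at 30 µg/kg was not called without vehicle animal 2 (adjusted p = 0.129) or 3 (0.128).

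**Figure D2:**
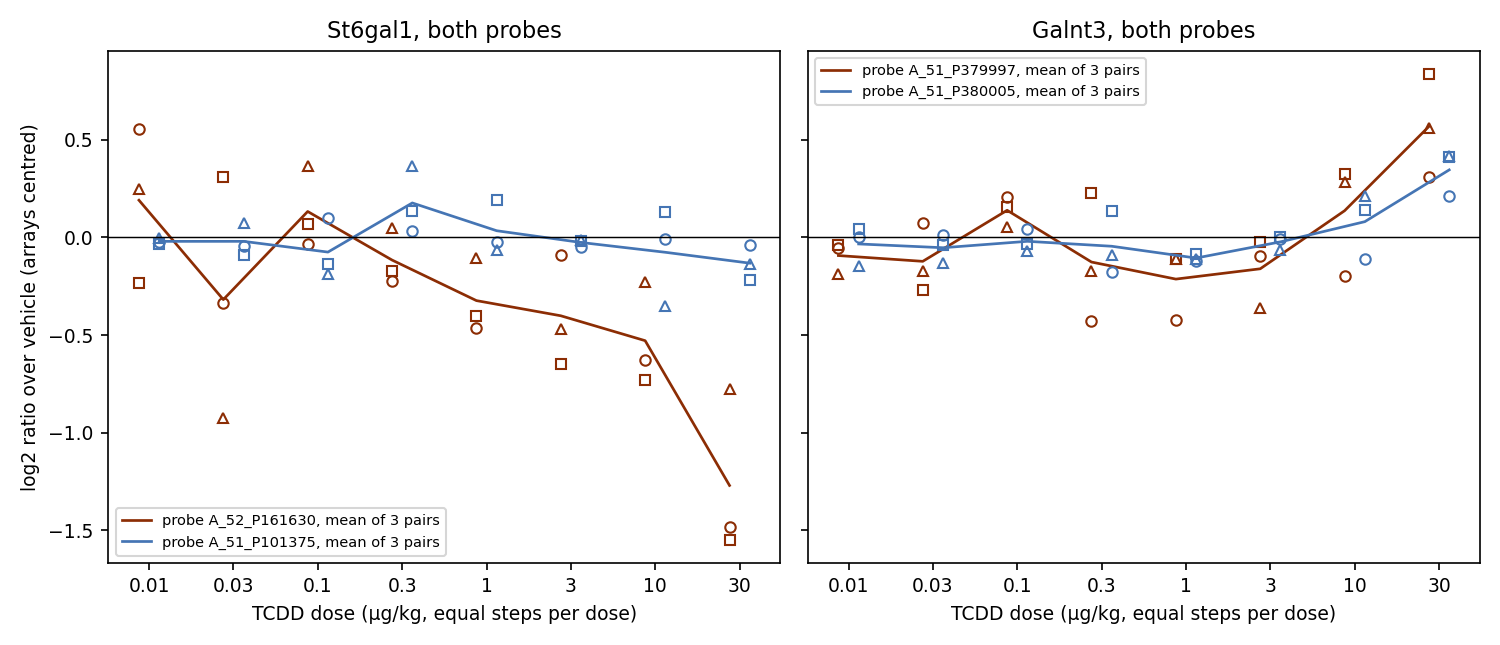
Log2 ratio over vehicle (y axis) of the 2 probes of St6gal1 (left) and of Galnt3 (right) at the 8 TCDD doses (x axis), with symbols for pairs 1 (circle), 2 (square) and 3 (triangle) and lines through the means of 3. The St6gal1 probes part with dose, to -1.27 and -0.13 at 30 µg/kg, and the Galnt3 probes rise together, to 0.57 and 0.35.

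Markers of several cell types lay below vehicle in the same samples as St6gal1. B and plasma cells are known for high St6gal1, and in bulk RNA fewer such cells and less RNA per cell cannot be told apart. At 30 µg/kg, 2 of 10 measured plasma cell markers were called, both lower, against 1.05% of all genes called lower. Jchain, the joining chain of secreted IgA, had -2.24, -1.84 and -0.96 (mean -1.68, limma adjusted p = 0.0224), and its call was lost after quantile normalization (adjusted p = 0.0667) and without vehicle animal 1 (0.239) or 2 (0.151). Tnfrsf13b, the receptor TACI, had -0.32, -0.45 and -0.27 (mean -0.35, adjusted p = 0.0292). The median of the plasma cell list was -0.24, -0.12 and -0.18 in pairs 1 to 3. Of 8 measured B cell markers 0 were called by limma, with 2 at an unadjusted p under 0.05, and the list median was -0.35, -0.69 and -0.07. In the T cell list 1 of 12 was called, Thy1 with -0.61 (adjusted p = 0.00358), and the list median was 0.10, -0.06 and 0.03. Endothelial markers were below 0 in 7 of 8 genes, with 0 called by limma and 3 at an unadjusted p under 0.05, and their list median was -0.23, -0.17 and -0.25 in the 3 pairs. Stromal and smooth muscle markers were below 0 in 8 of 13 genes, with 0 called and 6 at an unadjusted p under 0.05, and their list median was -0.05, -0.03 and -0.12. Macrophage and dendritic cell markers were below 0 in 7 of 12 genes and above it in 5, with 0 called by limma. In either direction, 5 of them reached an unadjusted p under 0.05, and the median over their mean ratios was -0.03. Over all genes tested, 2.14% were called at 30 µg/kg and 16.2% reached an unadjusted p under 0.05.

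Over the 24 pairs, the responding St6gal1 probe followed the median of the plasma cell markers with r = 0.75 (rho = 0.72, and r = 0.75 without the 2 pairs farthest from the median of the list). In the 15 pairs up to 1 µg/kg r was 0.83, and with dose means removed it was 0.65. Other lists also ran with this probe: r was 0.54 with the endothelial list (0.25 with dose means removed), and with the stem and cycling cell list it was 0.07, or 0.68 with dose means removed. The second probe had r = -0.07 with the same list. For the responding probe, r was 0.42 with the B cell list (0.58 with dose means removed) and 0.36 with the stromal and smooth muscle list (0.43). With the T cell list it was -0.26 (-0.36 with dose means removed). It was 0.03 with the enterocyte list and 0.75 with Jchain alone (0.59 without the 2 farthest pairs). In pair 3 at 0.03 µg/kg, where Jchain was at -1.83 and the plasma cell median at -0.27, the responding probe was at -0.93, at a dose where pairs 1 and 2 had -0.34 and 0.31. Pair 3 at 0.01 µg/kg went the other way, with Jchain at -1.80, the plasma cell median at -0.08 and the responding probe at 0.25. These are descriptions chosen after the values were seen, from 48 such correlations of 4 probes with 11 marker lists and Jchain. The pairs share vehicle animals and are not independent, no p is given, and the part of plasma cells or of any other of these cell types in the fall of St6gal1 was not tested.

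For Galnt3 the corresponding r with the plasma cell list was -0.23 and -0.21 for its 2 probes, and with the goblet cell list it was 0.44 for both (0.21 and 0.28 with dose means removed). With the Paneth cell list, markers of the antimicrobial cells of the crypts, it was 0.46 and 0.57 (0.38 and 0.59 with dose means removed, 0.27 and 0.33 without the 2 farthest pairs). Of 7 measured Paneth cell markers 6 were above 0 at 30 µg/kg, with 0 called by limma. At an unadjusted p under 0.05 there was 1, against 16.2% of all genes. The Paneth cell list median was 0.10, 0.09 and 0.93. Goblet cells secrete mucins. Of 12 measured goblet cell markers 1 was called higher at 30 µg/kg, against 1.09% of all genes. It was Klk1 with 1.87, 0.55 and 0.40 (mean 0.94, limma adjusted p = 0.0422), and the list median was 0.09, 0.13 and 0.10. Pairs 1 and 3 are also pairs with the exocrine pancreas signal given below, and its part in the Klk1 values was not tested. The part of Paneth or goblet cells in the rise of Galnt3 was not tested. Markers of exocrine pancreas, a neighbouring organ, stood far above vehicle in 6 of 24 pairs, among them pairs 1 and 3 at 30 µg/kg with list medians of 3.07 and 1.00. Without these 6 pairs only pair 2 is left at 30 µg/kg, and its spread is assumed to be that of the other pairs. There St6gal1 was -0.88 (adjusted p = 0.00716) and Galnt3 0.62 (adjusted p = 0.156, not called).

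**Figure D3:**
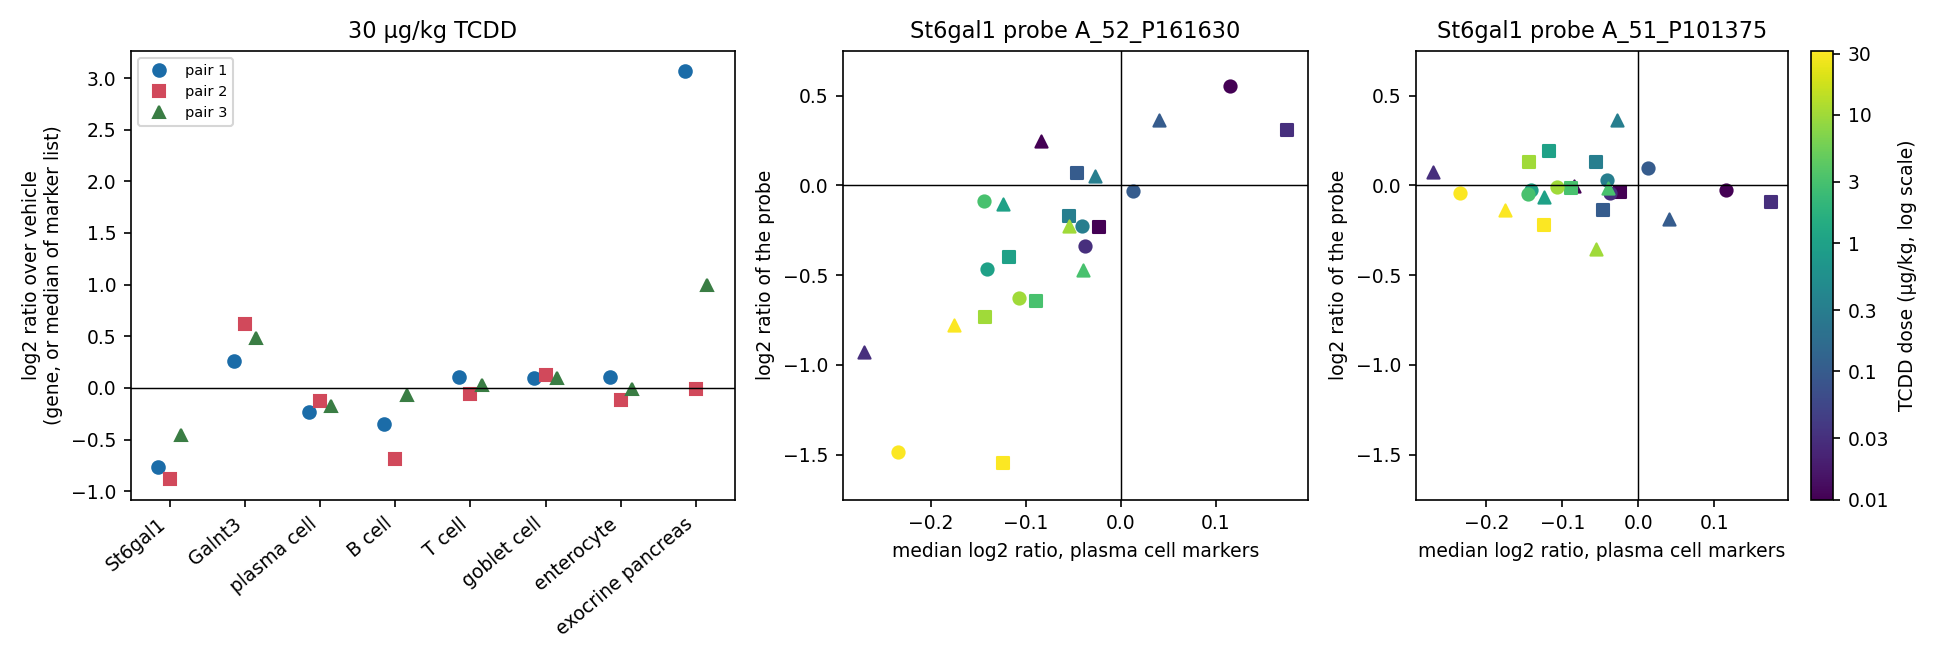
Left, log2 ratios at 30 µg/kg of St6gal1, Galnt3 and the medians of 6 marker lists in pairs 1 to 3. Middle and right, each St6gal1 probe (y axis) against the median of 10 plasma cell markers (x axis) in the 24 pairs, coloured by dose (symbols as left); the probe in the middle follows the list (r = 0.75) and the one on the right does not (r = -0.07).

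Among the other sialyltransferases, 0 of 9 measured genes were called at any dose by limma. The St3gal enzymes place sialic acid on galactose in another linkage than St6gal1. Of 5 measured St3gal genes 4 had a mean below 0 at 30 µg/kg, and 5 of 5 had a slope below 0, as had 6587 of all 12938 genes. An unadjusted p under 0.05 was reached by 2 of the 5 slopes, against 12.6% of all genes, and by 0 of the 5 differences of high from low doses, against 10.3%; limma called 0 of 5 in either test. St3gal1, which caps core 1 O-glycans, had 0.44, -1.71 and -1.47 at 30 µg/kg (mean -0.91 ± 1.18, SD, n = 3; limma adjusted p = 0.253). Its pairs fell on both sides of 0, and the 3 at 30 µg/kg span more than the mean. St3gal4, which works on the sialyl Lewis x epitope, had -0.71, 0.08 and -0.31 (mean -0.31, adjusted p = 0.382), and at 10 µg/kg -1.01, 0.29 and -0.20. St6galnac2, which sialylates the innermost sugar of O-glycans, had 0.23, 0.03 and 0.27 at 30 µg/kg (mean 0.18, limma adjusted p = 0.185). As the mean of 2 probes it was above 0 in all pairs and not called. Its probes had means of 0.27 and 0.09. In pair 2 the arrays of the first lay at 0.12 and -0.20, and those of the second at 0.10 and 0.11. St6gal2, the paralogue of St6gal1, had a mean of 0.11 (95% interval -0.05 to 0.26). St3gal5, which makes the ganglioside GM3, had a mean of -0.07 (interval -0.24 to 0.11), and St3gal3 of 0.06 (interval -0.05 to 0.18). St6galnac4 was the most scattered of the St6galnac genes, with 0.56, -0.22 and -0.52, and St6galnac6 had 0.23, 0.05 and -0.05.

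Among the fucosyltransferases 0 of 4 measured genes were called. Fut2 makes the secretor-type fucose of the gut surface, and its pairs at 30 µg/kg lay at 0.12, 0.04 and 0.04, a mean of 0.06 with a 95% interval from -0.06 to 0.19. Its 2 probes differed in sign at that dose (-0.05 and 0.17). Fut4, a Lewis x enzyme, had 0.71, -1.06 and 0.87 at 30 µg/kg, where 10 µg/kg gave 0.93, -0.93 and 0.57. Pairs 1 and 3 were high and pair 2 low at both doses, and the mean of 0.17 at 30 µg/kg has an interval from -0.61 to 0.95. Without vehicle animal 2 Fut4 was the 1 member called on the slope. Fut7, which makes selectin ligands in leukocytes, had -0.06, 0.07 and -0.19. Fut10 had -0.51, 0.07 and -0.16 at 30 µg/kg (adjusted p = 0.697).

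Among the enzymes that start or branch O-glycans, Galnt3 was the 1 called. Of 13 measured Galnt genes, 7 had means above and 6 below 0 at 30 µg/kg. An unadjusted p under 0.05 was reached by 4 including Galnt3, against 16.2% of all genes. Galnt5 had -0.07, -0.39 and -0.27 (mean -0.25, limma adjusted p = 0.209), below 0 in every pair. Galnt16 had its lowest p at 10 µg/kg, with 0.42, 0.32 and 0.03 (mean 0.26, adjusted p = 0.546), and at 30 µg/kg its pairs spread from -0.22 to 0.36. Galnt4, named after its values were seen, followed Galnt3 over the 24 pairs (r = 0.79, rho = 0.77, r = 0.66 without the 2 farthest pairs) and had 0.00, 0.34 and 0.35 at 30 µg/kg (adjusted p = 0.25). Galnt11, at -0.17, -0.06 and -0.22 (mean -0.15, adjusted p = 0.242), was below 0 in every pair, and Galnt7, which extends O-glycans already begun, had -0.47, 0.30 and -0.40. The means of the 7 others (Galnt1, Galnt2, Galnt6, Galnt9, Galnt10, Galnt12 and Galnt13) lay between -0.12 and 0.15. The Gcnt enzymes add the branches of core 2 O-glycans and of I antigens. Gcnt1 had a mean of 0.11 (adjusted p = 0.746), Gcnt2 of -0.12 (0.675), and Gcnt3, the mucin-type enzyme of mucous epithelia, had -0.42, 0.55 and -0.13.

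Of 7 measured Mgat genes, which branch N-glycans, 0 were called by limma at any dose, 6 had means below 0 at 30 µg/kg and all 7 means were between -0.22 and 0.16. Mgat2, which opens the second antenna of complex N-glycans, had -0.44, -0.13 and -0.08 (mean -0.22, limma adjusted p = 0.394). Mgat4a had 0.19, 0.21 and 0.07 (mean 0.16, adjusted p = 0.243), above 0 in every pair. Mgat1, the first enzyme of complex N-glycans, had a mean of -0.08 at 30 µg/kg and of 0.10 at 10 µg/kg. Mgat3, which adds the bisecting GlcNAc, had 0.07, -0.38 and -0.10, and Mgat5, which starts a further branch, -0.24, -0.14 and -0.01.

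Of the 13 measured galactosyl- and N-acetylglucosaminyltransferases of the B3galt, B4galt and B3gnt families, 0 were called. B4galt6, a lactosylceramide synthase, had 0.41, 0.23 and 0.48 at 30 µg/kg (mean 0.37, 95% interval 0.10 to 0.65; limma adjusted p = 0.159) and 0.28, 0.18 and 0.31 at 10 µg/kg. These 6 values were above 0. Over all doses so were 8 of 8 pairs of vehicle animal 3, 7 of 8 of vehicle animal 1 and 3 of 8 of vehicle animal 2. The vehicle animal accounted for 46.1% of the variance against 20.8% for dose. The difference of high from low doses, in which the vehicle animals cancel, was 0.18 (limma adjusted p = 0.653). Within vehicle animals 1, 2 and 3 this difference was 0.22, 0.20 and 0.12. B3galt6, which builds the linker of proteoglycans, had 0.24, 0.32 and -0.01 (mean 0.18, adjusted p = 0.175), and B3galt4, a ganglioside enzyme, -0.08, -0.28 and 0.03 (mean -0.11, adjusted p = 0.33). B3galt1 had a mean of 0.05 at 30 µg/kg and of 0.14 at 10 µg/kg, and B4galt3 of 0.05 at 30 µg/kg. B3gnt7 had means of 0.13 at 30 and 0.27 at 0.3 µg/kg (adjusted p = 0.194 at the latter), and B3gnt9 of -0.13 at 30 µg/kg (adjusted p = 0.504). B4galt1, the main galactosyltransferase of N-glycans, had 0.06, 0.06 and -0.11, a mean of 0.00 with an interval from -0.13 to 0.13. B4galt4, B3gnt2, B3gnt3 and B3gnt8 had means between -0.08 and 0.03.

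**Figure D4:**
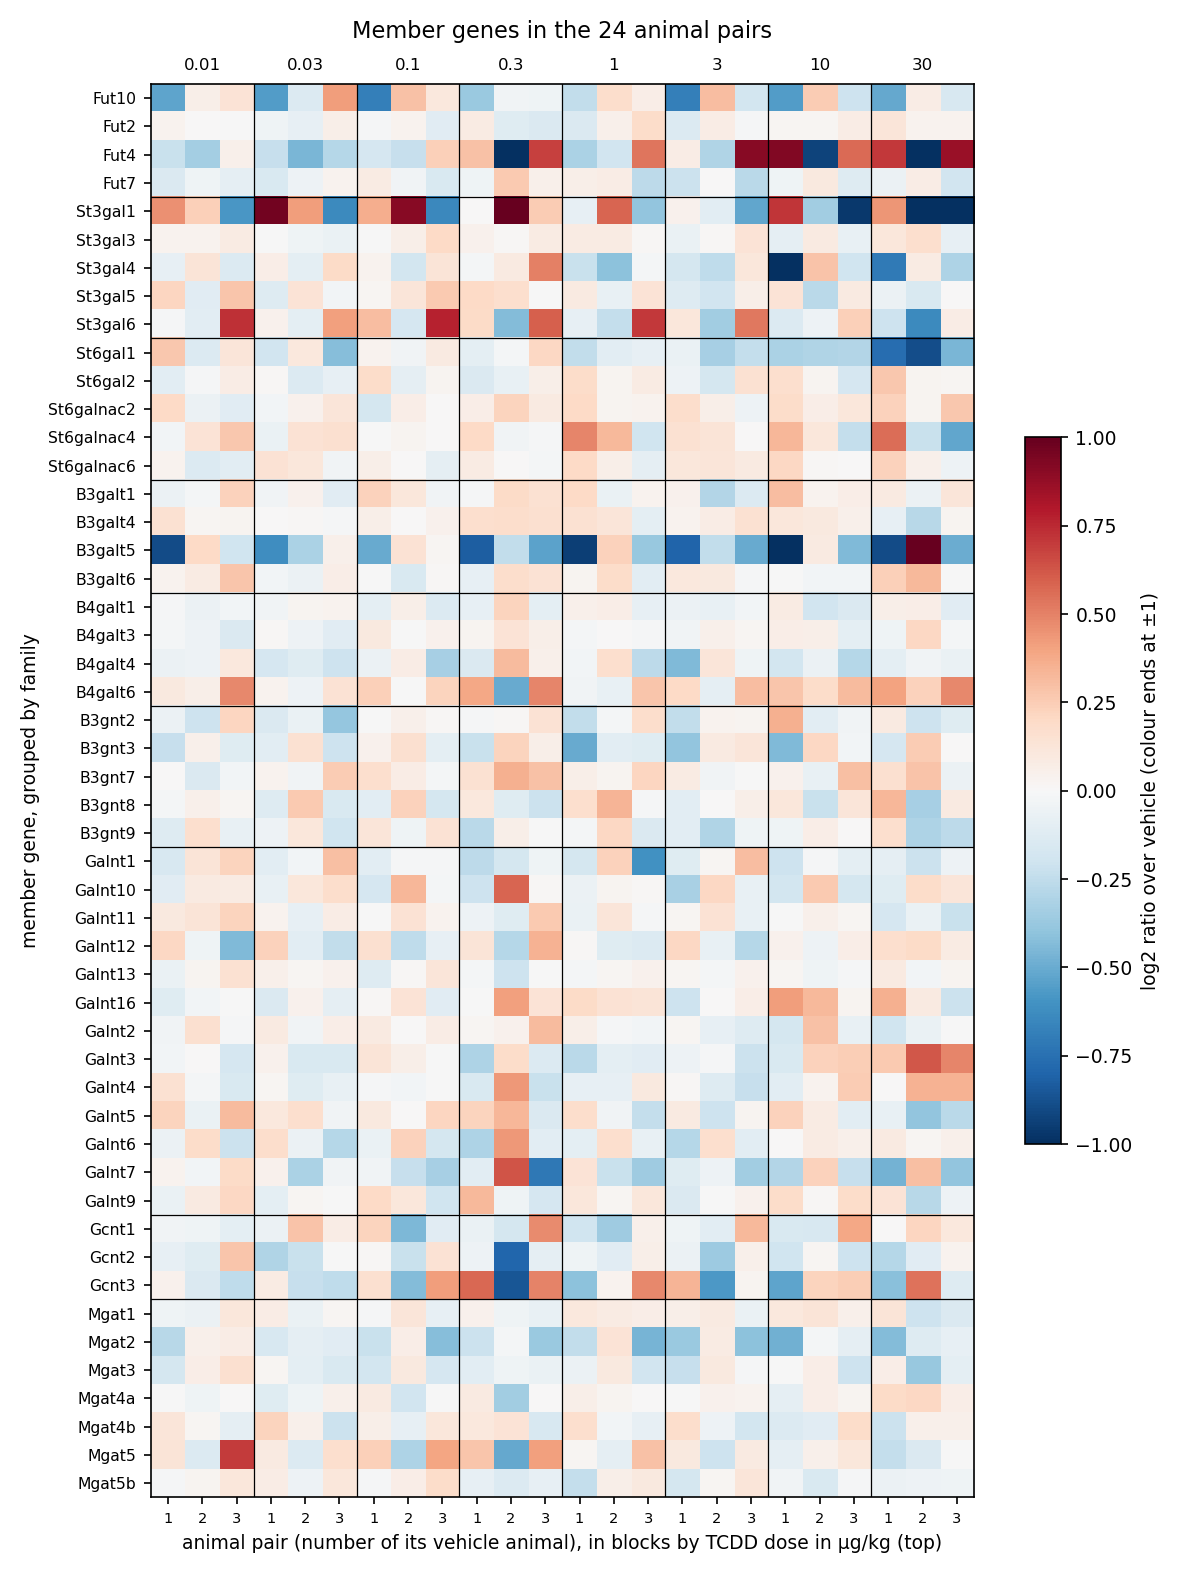
Log2 ratio over vehicle (colour, ends at ±1) of the 50 member genes (rows, by family) in the 24 animal pairs (columns, in blocks of 3 by TCDD dose). St6gal1 darkens towards 30 µg/kg in all 3 columns, whereas the rows of B3galt5, St3gal1, St3gal6 and Fut4 differ between columns of 1 dose.

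Several members spread widely between the pairs of 1 dose. The spread within doses was above that of 99% of all genes in B3galt5 (SD 0.85), St3gal1 (0.75) and Fut4 (0.71), while the median over members was 0.16 and over all genes 0.15. B3galt5, which makes type 1 chains in digestive epithelia, had -0.90, 2.89 and -0.49 at 30 µg/kg. Both arrays of pair 2 were high, at 2.53 and 3.26, and in the other 7 pairs of vehicle animal 2 the gene lay between -0.32 and 0.23. With vehicle animal 1 B3galt5 was below 0 in all 8 pairs, from -1.12 to -0.51, whatever the dose. The mean of 0.50 at 30 µg/kg (limma adjusted p = 0.639) became -0.69 without replicate 2. With the pairs carrying pancreas signal left out, only that 1 pair is left at 30 µg/kg and B3galt5 is called there (adjusted p = 0.00733), with no second pair to compare.

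St3gal6, named after its values were seen, was above 0 in all 8 pairs of vehicle animal 3 (0.08 to 0.77) and below 0 in all 8 pairs of vehicle animal 2 (-0.64 to -0.05). The difference of high from low doses within vehicle animals 1, 2 and 3 was -0.28, -0.22 and -0.48, and St3gal6 was not called in that test. The vehicle animal accounted for 72% of its variance over the 24 pairs and for 74.4% of that of Fut10, and dose for 16.8% and 3.4%. Over the members the median shares were 16.4% for the vehicle animal and 24% for dose, near the 17.8% and 25.5% of all genes. In 12 of 50 members (24%) all 8 pairs of some vehicle animal lay on 1 side of 0, against 22% of all genes. Mgat5, also named after its values were seen, followed St3gal6 over the 24 pairs (r = 0.86, rho = 0.92, 0.85 without the 2 farthest pairs). It was the highest of 1225 correlations between members, and it is a description over pairs that share vehicle animals.

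**Figure D5:**
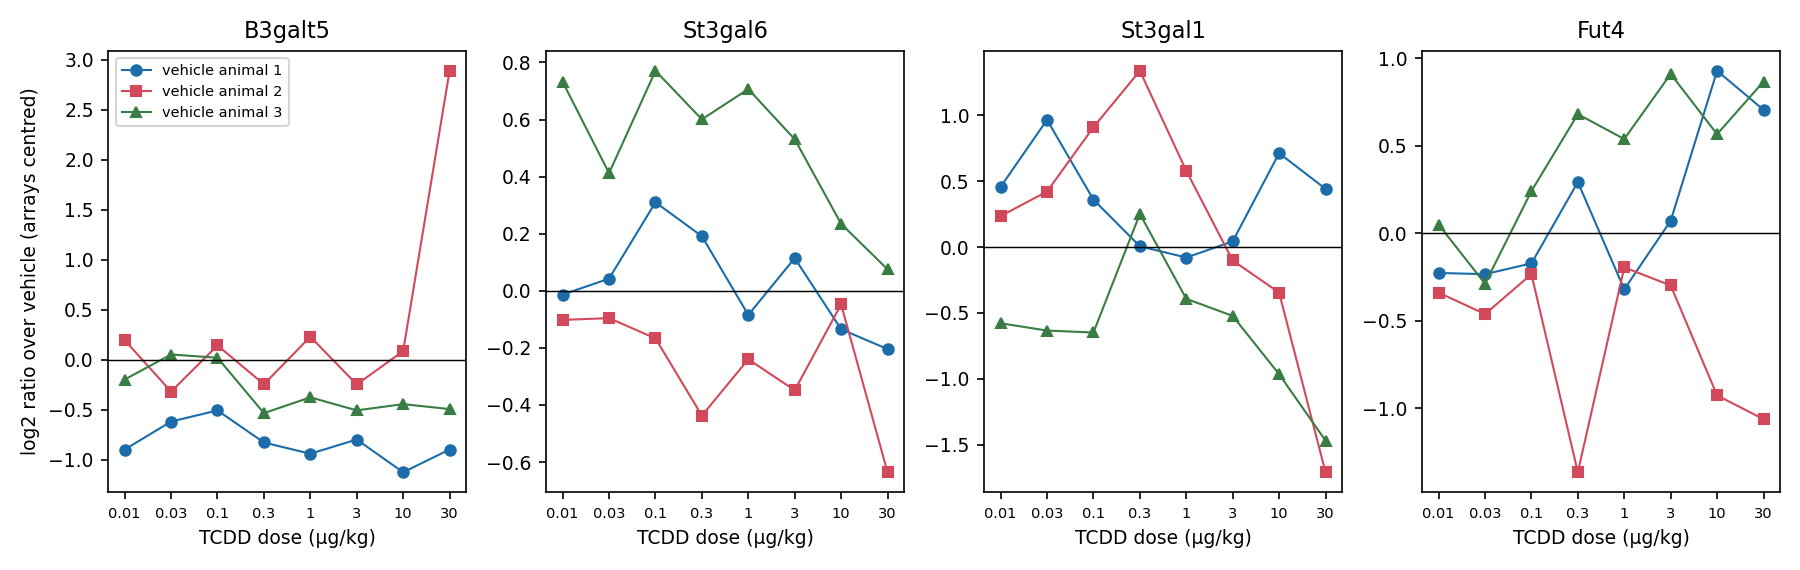
Log2 ratio over vehicle (y axis, own scale per panel) of B3galt5, St3gal6, St3gal1 and Fut4 at the 8 TCDD doses (x axis), with 1 line for the pairs of each vehicle animal. The lines lie apart at most doses, and in B3galt5 the single value of 2.89 is pair 2 at 30 µg/kg.

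Genes that supply, trim, carry or read these glycans were set beside the enzymes, from lists chosen with earlier results known. Of 34 measured genes of nucleotide sugar supply, 1 was called at 30 µg/kg, against 2.14% of all genes tested. It was Pmm1, a phosphomannomutase on the path to GDP-mannose and from there to GDP-fucose. It had 0.97, 0.81 and 0.98 (mean 0.92 ± 0.10, SD, n = 3; limma adjusted p = 5.77e-07), or 1.89-fold, and with 10 µg/kg TCDD it had 0.61, 0.36 and 0.65 (adjusted p = 0.0027, or 0.151 without vehicle animal 1 and 0.0637 without 2). All 6 values lay above every Pmm1 value of the 18 pairs at lower doses, which ended at 0.31. The other 33 genes were not called, and the list had a median of -0.06, with 21 of 34 below 0.

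Manba, the lysosomal beta-mannosidase, was the 1 of 13 measured glycosidases called at 30 µg/kg, where 1.05% of all genes were called lower. It had -0.39, -0.21 and -0.27 (mean -0.29, limma adjusted p = 0.0472). Its call was lost after quantile normalization (adjusted p = 0.139) and without any 1 vehicle animal (0.0997 to 0.264). Siglecf, a sialic acid-binding lectin of eosinophils, was the 1 of 13 measured glycan-binding genes called at 10 µg/kg, with 0.47, 0.59 and 0.66 (mean 0.57, adjusted p = 0.0396), where 0.201% of all genes were called higher, and its call was also lost without any 1 vehicle animal (0.124 to 0.233). With 30 µg/kg it had 0.42, -0.22 and 0.35 and was not called. Among the remaining lists limma called at this dose 0 of 14 measured mucins and glycan carriers (2 at an unadjusted p under 0.05), 0 of 9 sulfotransferases (2), 0 of 28 other glycosyltransferases (3) and 0 of 30 genes of N-glycan core assembly and trimming (6). Over all genes tested 2.14% were called at this dose, and 16.2% reached an unadjusted p under 0.05. The smallest p of each list belonged to Muc6 (0.18, adjusted p = 0.204), Chst11 (0.18, 0.0766), Ogt (-0.31, 0.0682) and Manea (-0.39, 0.0547). Ogt adds single GlcNAc sugars to intracellular proteins, and Manea trims glucosylated N-glycans in the Golgi.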

How the data were processed

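The submitters deposited processed log ratios for 41085 probes on 48 arrays. No source states their base, which was read as log2, and how these deposited log2 ratios were background-corrected, normalized or filtered is not given in the sources used here. Without intensities, signal over background is unknown and no filter on dim spots was possible, and 25% of the cells are empty. The mean profiles of the 2 dye orientations correlated at -0.59, which is a dye effect that the mean of a pair's 2 arrays cancels. The 2 arrays of a pair correlated below 0 in 10 of 24 pairs. With the mean of each orientation removed, this correlation ran from 0.02 to 0.80. Per the labels, 1 protocol also calls the gavage daily.

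Arrays were centred on their median, and the 2 arrays of a pair averaged. Probes complete on 48 arrays with 1 symbol were averaged to genes. Left out were 280 complete probes whose value at least 50 probes of an array share on 6 or more arrays, among them 1 of St3gal4. limma 3.58.1 (R 4.3.3, statmod 1.5.0) fitted 1 mean per dose over all 24 pairs, with 1 spread for all doses, a slope on log10 dose and the difference of high from low doses, two-sided, with Benjamini-Hochberg p-values. The fit was tested on simulated data. The labels give the shared vehicle animals, which pair the samples. With dose means removed, pairs of the same vehicle animal correlated at 0.28 on average (84 combinations) and others at -0.14.

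Members and gene lists were chosen with earlier results of these data known. Named are St6gal1, every called member, and per family the 2 smallest p at 30 µg/kg, the smallest at 10 µg/kg and on the slope. Added are the 3 largest rises and falls at 10 and 30 µg/kg, and of each pathway list the called genes or else the smallest p. Other members and marker genes were named after their values were seen. Alternatives are in the closing section. P-values cover the spread between 3 pairs per dose.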

Additional observations from a re-analysis of the deposited data

Results flagged for a closer look

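St6gal1 differed between high and low doses. The mean of 10 and 30 µg/kg lay 0.48 below the mean of 0.01, 0.03 and 0.1 µg/kg (log2 difference -0.48, limma adjusted p = 0.00542). Its direction was the same within all 3 vehicle animals, as it was in some members that were not called. The difference was -0.90 for the responding probe (adjusted p = 0.0132) and -0.07 for the other (adjusted p = 0.831).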

How the results depend on the processing

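At the 7 doses below 30 µg/kg the count of called members was 0 under every alternative run; of all genes, at 10 µg/kg 28 were called, 10 without vehicle animal 1, 109 without 3 and 1 with 3 pairs alone, and at 0.3 µg/kg 18, 174 not centred and 1 with quantile normalization. At 30 µg/kg it stayed at 2 (St6gal1 and Galnt3) with values not centred, quantile normalization, the replicate block, the shared-value probes kept, the median of probes, and probes complete only at the doses compared, while the genes called over the whole table were 277 in the main setting, 97 with quantile normalization, 544 not centred and 123 to 146 without 1 vehicle animal. It was 0 with the 3 pairs of that dose alone (6 of all genes called; adjusted p = 0.249 for St6gal1 and 0.413 for Galnt3), and 1 to 2 without 1 vehicle animal. On the slope it was 0 with the pancreas pairs left out (4 of all genes called, against 82) and with arrays of the treated animal in Cy3 only (35 called), and 0 to 1 without 1 vehicle animal (9 to 139 called; 198 with the replicate block, 50 not centred, 46 with Cy5 only). That dose comparison already uses all pairs, so a fit of its doses alone was not run. For high against low doses it was 2 with the replicate block and 0 to 1 without 1 vehicle animal (168 and 26 to 87 of all genes called, against 82; 37 without pancreas pairs, 52 with Cy5 and 49 with Cy3 only), and without vehicle animal 1 the called member was Galnt3. The replicate block, possible because the vehicle animals pair the samples, changed no other member call. With the pancreas pairs left out the 2 members at 30 µg/kg were St6gal1 and B3galt5. St6gal1 at 30 µg/kg kept its direction under the alternatives run, from -0.88 to -0.13, the latter its second probe, and was called except with that probe and with 3 pairs alone (adjusted p 6.13e-05 to 0.451). Galnt3 ranged from 0.35 to 0.62 (adjusted p 0.00647 to 0.413).

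Some uncalled members changed sign at 30 µg/kg, all with adjusted p above 0.05. Not centred, B3galt1 was -0.0062 and B4galt3 -0.0082. With the pancreas pairs left out B3galt1 was -0.0587, Fut10 0.0708, Fut4 -1.06 and St3gal4 0.0847. With the weakest probe B4galt3 was -0.0813 and Fut2 -0.0464. Without 1 vehicle animal B4galt3 ranged from -0.0312 to 0.0939, Fut4 from -0.178 to 0.786, Galnt16 from -0.0631 to 0.223 and B3galt5 from -0.695 to 1.20. The cause was not tested. With a less strict filter on empty cells 5 more members were tested at 30 µg/kg and 0 were called by limma.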
